A study of Homo sapiens with 6 samples.

Results

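The protein import machinery of mitochondria was followed in ribosome footprint libraries of RKO, a cell line from a human colorectal carcinoma. Members were taken by name: every gene whose symbol is TIMM or TOMM followed by a number, plus SAMM50, MTX1, MTX2, PAM16, DNAJC19, GRPEL1, HSPA9, PMPCA, PMPCB, CHCHD4 and GFER. This gave 36 of the 20289 genes in the table, and 35 of them were among the 11566 genes tested. The study has 6 libraries, 3 from cells carrying a control short hairpin RNA (shControl) and 3 from cells in which the hairpin is directed against TRMT6 (shTRMT6). All 6 share the RKO background, and no other treatment, time or allele is given. How many hairpins or clones were used, and whether replicates were grown as separate cultures, is not stated, so the p-values measure the spread between these libraries, which may be technical. Footprints are the stretches of mRNA that a ribosome covers, so a gene's level depends on the amount of its mRNA and on how many ribosomes each mRNA carries, and the 2 were not separated here.

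Nearly all mitochondrial proteins are made in the cytosol and carried in through these complexes. The TOM complex of the outer membrane recognises precursors with its receptors and passes them through the TOMM40 channel. From there, the SAM complex folds beta-barrels into the outer membrane, the oxidative MIA pathway traps small cysteine-rich proteins between the membranes, and the small TIM chaperones hand carriers to TIM22 in the inner membrane. Precursors with a cleavable presequence pass through TIM23, are pulled into the matrix by the HSPA9 motor and are cut by the peptidase made of PMPCA and PMPCB. TRMT6, together with TRMT61A, methylates adenosines in the T loop of cytosolic tRNAs.

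Start-site sequences of some members are shown first, because import genes are known to be driven by shared promoter elements. TIMM23, TOMM40 and TOMM34 were lower in shTRMT6, and TOMM20, a receptor of the same pathway, was not called. No member called higher is shown. Each run holds the 250 bases before the start site on the gene's own strand, 5′ to 3′, from RefSeq on GRCh38.p14. The windows are chr10:45972239-45972488 on the plus strand for TIMM23, chr19:44891004-44891253 on the plus strand for TOMM40, chr20:44960398-44960647 on the minus strand for TOMM34 and chr1:235128838-235129087 on the minus strand for TOMM20. Capitals mark a match, on either strand, to the NRF1 motif (GCGCA, any base, GCGC) or to the ETS core CCGGAAG. All members shown hold a match, whereas MTX1, TIMM17A and TIMM17B, also lower, and TIMM44, called higher, hold neither.
TIMM23: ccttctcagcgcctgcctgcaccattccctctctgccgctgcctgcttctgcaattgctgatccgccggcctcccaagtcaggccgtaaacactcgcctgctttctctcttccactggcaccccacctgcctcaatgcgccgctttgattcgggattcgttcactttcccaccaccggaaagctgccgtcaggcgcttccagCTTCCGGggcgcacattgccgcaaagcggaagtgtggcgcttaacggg
TOMM40: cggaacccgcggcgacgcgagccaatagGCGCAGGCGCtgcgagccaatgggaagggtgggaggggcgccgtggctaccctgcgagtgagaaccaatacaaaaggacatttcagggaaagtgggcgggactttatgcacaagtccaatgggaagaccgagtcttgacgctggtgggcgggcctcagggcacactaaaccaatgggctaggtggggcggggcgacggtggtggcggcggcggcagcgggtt
TOMM34: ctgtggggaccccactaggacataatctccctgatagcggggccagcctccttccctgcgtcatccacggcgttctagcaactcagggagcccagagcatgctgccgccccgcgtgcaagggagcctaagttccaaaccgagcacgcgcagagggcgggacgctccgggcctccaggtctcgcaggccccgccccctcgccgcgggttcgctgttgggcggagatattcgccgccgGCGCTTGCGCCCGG
TOMM20: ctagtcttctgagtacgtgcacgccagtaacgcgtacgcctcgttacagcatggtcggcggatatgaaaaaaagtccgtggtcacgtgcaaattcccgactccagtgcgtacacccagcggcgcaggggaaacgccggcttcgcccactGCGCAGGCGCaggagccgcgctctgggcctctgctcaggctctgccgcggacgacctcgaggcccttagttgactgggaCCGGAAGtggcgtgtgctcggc

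In TIMM23 the ETS match began 48 bases before the start. The NRF1 match of TOMM40 lay far upstream, 222 bases before it, and that of TOMM34 only 14 bases before it, where it runs directly into an ETS match that crosses the start. TOMM20 held both, at 101 and 22 bases before the start. Over a window of 250 bases before and 50 after the start, 33 of the 36 members had an entry, and GRPEL1, TIMM8B and TOMM5 had none. The NRF1 motif was found in 7 of the 33 (21.2%), against 7.0% of all 27305 genes with an entry and 14.1% of the 9322 tested ones. The ETS core was found in 13 (39.4%), against 12.2% and 24.1%, and the YY1 motif AAGATGGC in 3 (9.1%), against 3.5% and 6.9%. The motifs did not sort the members by their change: the ETS core stood in 4 of 9 members called lower, 1 of 2 called higher and 8 of the 22 others (TOMM20L, which was not tested, among them), and the NRF1 motif in 2, 0 and 5 of them. A match is a match of letters and no measured binding site.

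TRMT6 itself measured 57.6, 58.4 and 95.3 FPKM (fragments scaled by gene length and library size) in the controls and 20.7, 21.9 and 24.1 FPKM in the knockdown, a log2 fold change of -1.58 (SE 0.27, limma adjusted p = 0.00301). The deposited FPKM of a library added up to between 1463344 and 1760307, and from the spacing of low values its depth was estimated at 2577000 to 4049000 reads. Of the 7 epithelial markers, KRT8, KRT18, EPCAM and CDX2 were present in every library, CDH1 and VIL1 were listed at 0 in all 6, and KRT19 reached 1.52 FPKM in 1; the summed level was 165 to 262 FPKM in the controls and 168 to 193 FPKM in the knockdown. Of 10 markers of blood, stromal and endothelial cells, only CD68, a lysosomal protein also made outside macrophages, was at 1 FPKM or more in all libraries, and the summed level of the list was 560.4 to 743 and 575 to 757 FPKM. shControl replicate 3, the third control, stands apart in the members: it was the lowest control in 27 of them, with coding lengths of 153 to 1356 nt, and the highest in 6, with 1368 to 2037 nt. Results that change without it are given with that value.

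After TRMT6 knockdown, lower footprint levels were called in more members than higher ones. Lower were the channel subunit TOMM40, the co-chaperone TOMM34, both metaxins, 4 of 6 genes of the TIM23 group, the small TIM TIMM10 and the motor's exchange factor GRPEL1; higher were TIMM8B, TIMM10B and TIMM44. In numbers, 10 of the 35 tested members were lower and 3 higher in limma at an adjusted p under 0.05, and 22 did not pass. Among all tested genes 9.04% were lower and 26.5% higher. The median log2 fold change was -0.02 over the members and 0.39 over all tested genes. The libraries of both groups did not overlap in 10 members that were lower and 6 that were higher, against 14.3% and 37.0% of all tested genes.

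How the libraries are put on one scale shifts every gene, and with it the split. Scaling each library to the same median moved the median of all genes from 0.39 to -0.07; 13 members were then lower and 0 higher, beside 19.7% and 13.2% of all genes. After quantile normalization 11 members were lower and 3 higher, beside 14.7% and 13.9%, and with the trends by level and coding length removed 10 were lower and 5 higher, beside 13.7% and 13.5%. With the sum taken without mitochondrially encoded and histone genes, 9 were lower and 7 higher, beside 6.85% and 33.5%, and the median of all genes was 0.55. MTX2, TOMM40, GRPEL1 and TIMM23 were lower past the threshold in each of the 15 alternatives run at that threshold, and none of the 13 called members changed direction in any. At an adjusted p under 0.1, 11 were lower and 5 higher, beside 11.9% and 33.5%, and under 0.01, 4 and 0, beside 4.09% and 12.3%. With the replicate number as a block they were 11 and 4, beside 9.21% and 27.2%. Leaving out 1 library at a time also moved the counts. Without shTRMT6 replicate 1, 2 or 3, in this order, 5, 8 and 5 members were lower and 0, 0 and 1 higher, while the shares of all genes were 5.22%, 6.40% and 5.33% lower and 16.6%, 17.9% and 15.7% higher. For shControl replicates 1, 2 and 3 left out, 7, 10 and 14 were lower and 1, 5 and 4 higher, beside 6.00%, 8.11% and 12.4% lower and 19.9%, 27.7% and 28.6% higher.

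**Figure D1:**
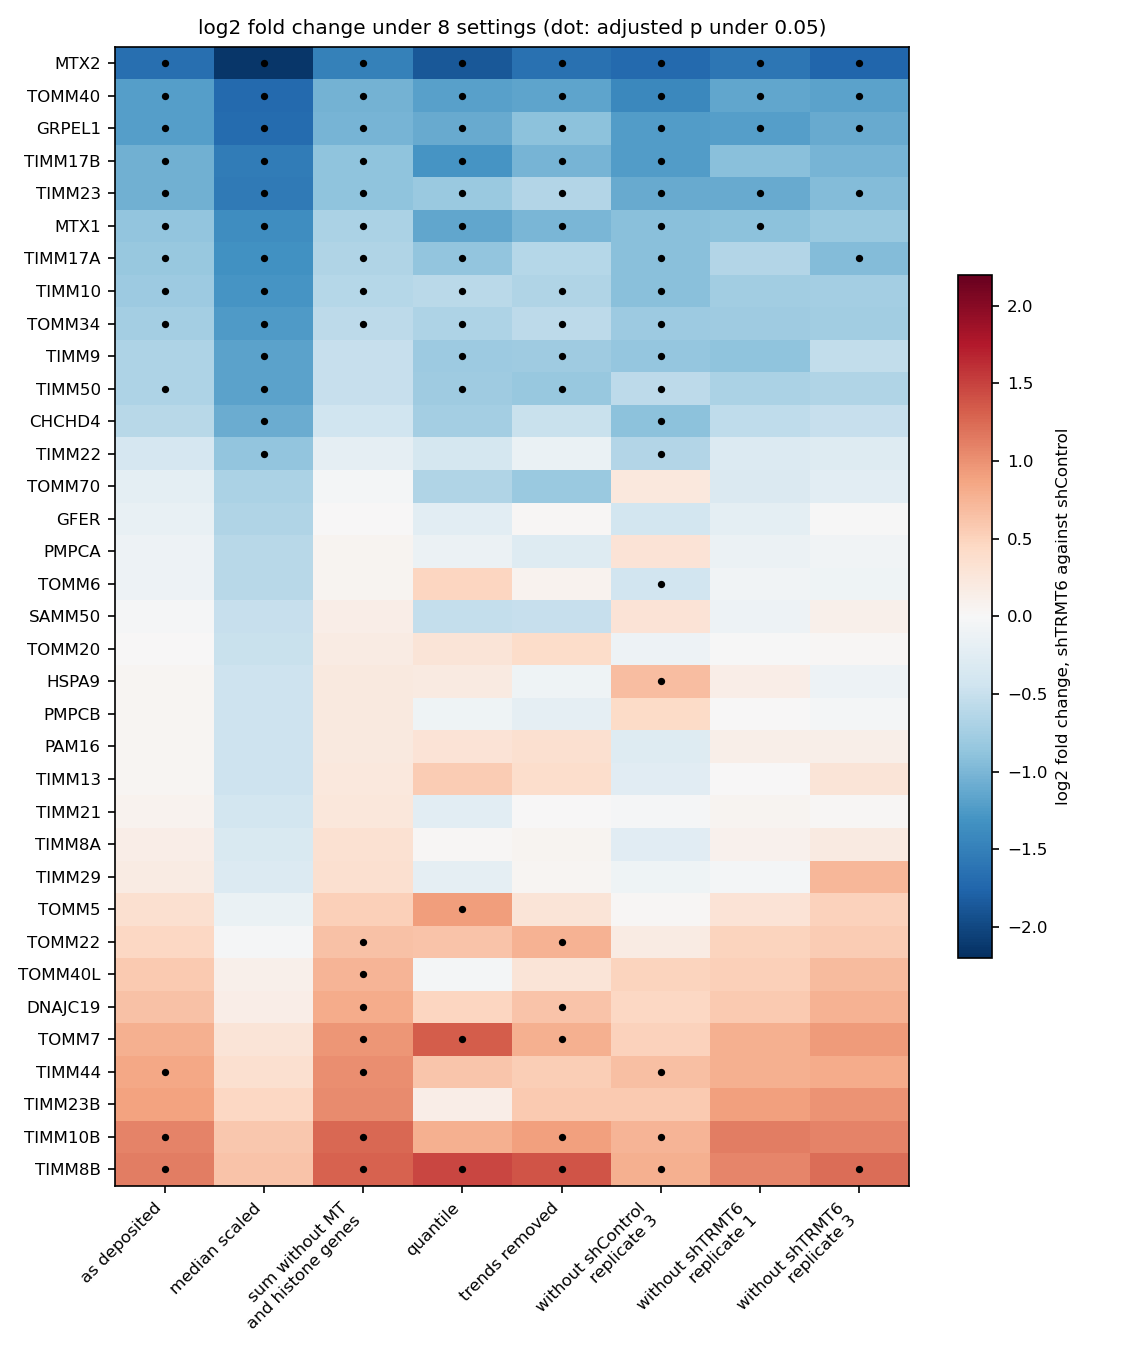
Heat map of the log2 fold change (shTRMT6 against shControl) of the 35 tested members, in rows, under 8 settings, in columns; blue is lower, red is higher and a dot marks an adjusted p under 0.05. MTX2, TOMM40, GRPEL1 and TIMM23 carry a dot in all 8 columns, while the rows in the middle change sign between columns.

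The levels of the members spanned from the small TOM subunits down to genes near the floor. FPKM is scaled by gene length, but which length the authors used is not given. Ranks between genes of unlike length therefore describe the deposited values only. TOMM5, TOMM7, TOMM6 and TIMM13 were the 4 highest in this order in both groups. Control means were 2473 ± 837 FPKM for TOMM5 and 1688 ± 548 FPKM for TOMM7 (SD, n = 3). TIMM23 fell from the fifth to the tenth place and TIMM8B went from the tenth to the fifth. MTX2 went from place 19 to place 31. At the other end, TOMM40L and TIMM23B were at places 34 and 35 in both groups, and TOMM20L, a relative of the receptor TOMM20, was at 0.64 FPKM in 1 control, 0.82 FPKM in 1 knockdown library and listed at 0 in the other 4; it was not tested. The 36 members together made up 0.642% to 0.928% of a library's FPKM sum. Their values rest on an estimated 7 to 5702 reads per library, TOMM20L aside.

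**Figure D2:**
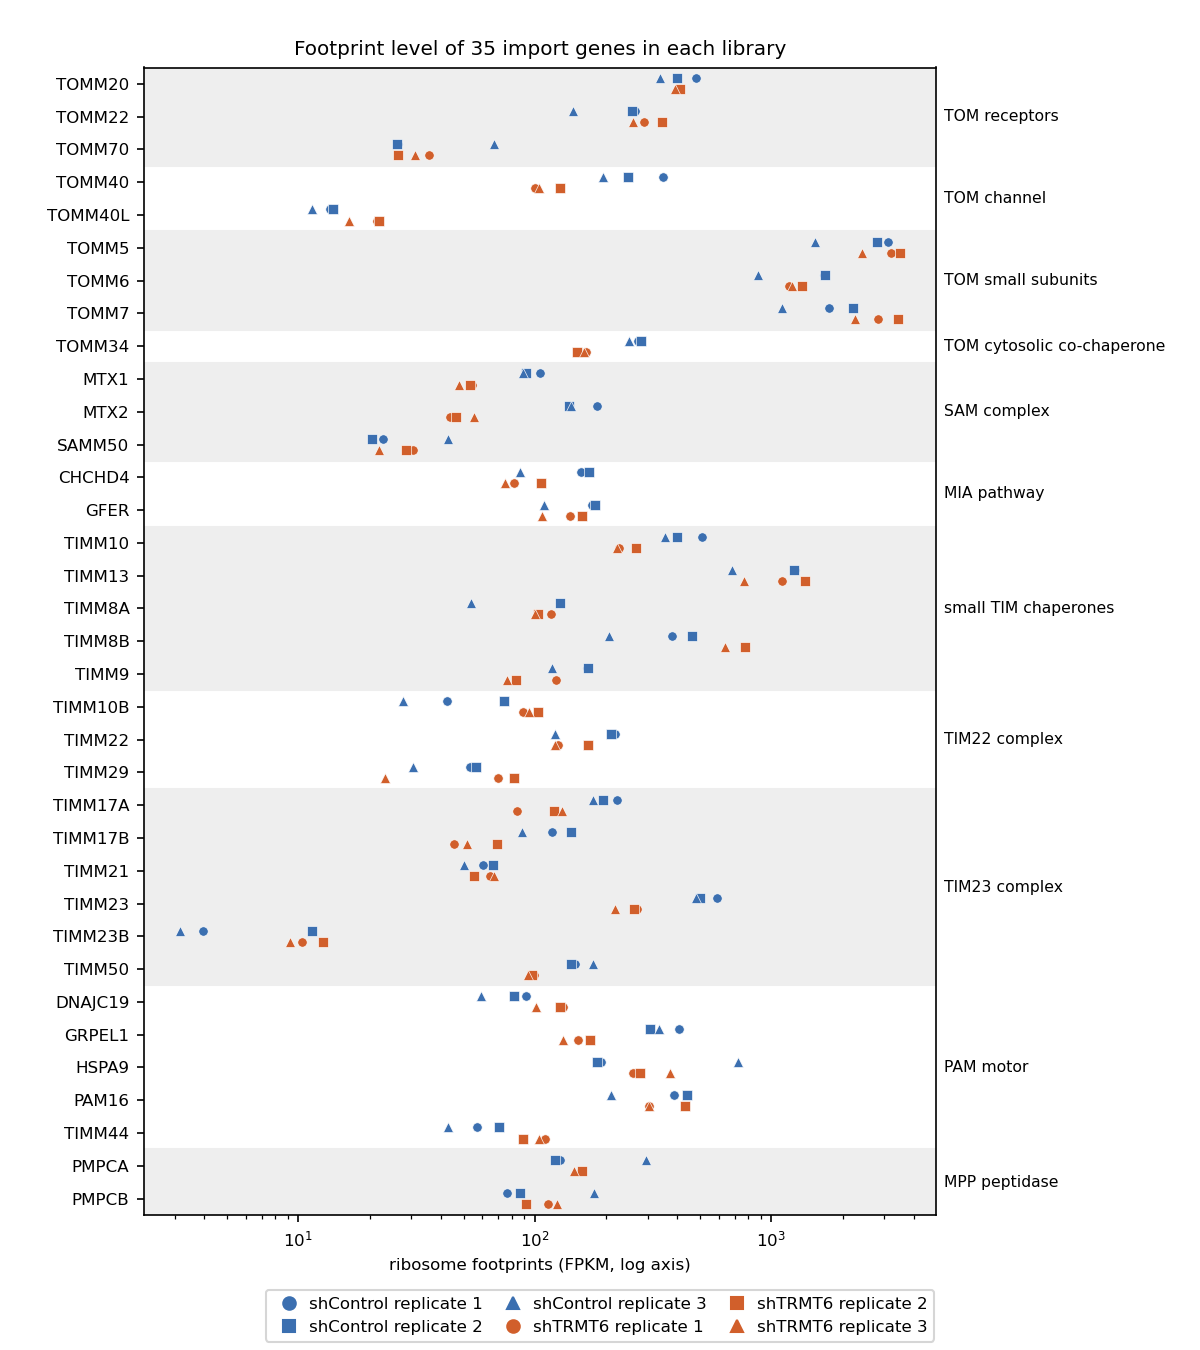
FPKM of each import gene, in rows grouped by role, on a log axis in the 3 shControl and 3 shTRMT6 libraries, 1 point a library. TOMM5 lies between 1523 and 3496 FPKM, TIMM23B between 3.16 and 12.7 FPKM, and in MTX2, TIMM23, GRPEL1 and TOMM40 all 3 knockdown points lie left of the 3 control points.

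The receptors of the TOM complex showed no called change. TOMM20, which binds presequences, measured 478, 400.3 and 338 FPKM in the controls and 408, 412 and 391 FPKM in the knockdown. The knockdown libraries thus lay within the controls (log2 fold change 0.01, 95% interval -0.45 to 0.46, limma adjusted p = 0.985). With trends by level and length removed the value of TOMM20 was 0.40 (adjusted p = 0.0758), and after median scaling -0.49 (adjusted p = 0.105). TOMM22, the central receptor, measured 264, 258 and 145 FPKM against 289, 345 and 261 FPKM. Its groups overlapped in one library only (log2 fold change 0.46, adjusted p = 0.203), and it passed as higher with trends by level and length removed (0.76, adjusted p = 0.0117) and with the sum without mitochondrially encoded and histone genes (0.64, adjusted p = 0.0433). TOMM70, which receives carriers from cytosolic chaperones, measured 26.4, 26.1 and 67.3 FPKM against 35.6, 26.4 and 31.2 FPKM. The third control was its highest library, and the value of -0.22 (limma adjusted p = 0.671) became 0.22 without it. With trends by level and length removed the value of TOMM70 was -0.81 (adjusted p = 0.106). It was -0.42 with the third control left out as well (adjusted p = 0.196).

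The channel subunit TOMM40 fell. Its level was 349, 248 and 194 FPKM in the controls and 100.2, 127 and 104 FPKM in the knockdown, with no overlap (log2 fold change -1.21, SE 0.25, limma adjusted p = 0.00685). It lies on chromosome 19 (44890569 to 44903689, plus strand, GENCODE 29 on GRCh38). TOMM40L, its paralog, moved the other way at a level far below: 13.6, 14.0 and 11.4 FPKM against 21.5, 22.0 and 16.4 FPKM, without overlap but not called (0.57, adjusted p = 0.122). With the sum without mitochondrially encoded and histone genes it passed as higher (0.74, adjusted p = 0.0450), and after quantile normalization its value was -0.05. TOMM40L shares 661 exon bases with NR1I3 on the opposite strand, at a mean of 0 FPKM in the controls and 1.4 FPKM in the knockdown. The part of NR1I3 reads in the level of TOMM40L was not tested. TOMM34, a cytosolic co-chaperone of precursors, fell from 272, 282 and 249.7 FPKM to 164, 150.3 and 161 FPKM, each group within a narrow range (-0.75, SE 0.19, adjusted p = 0.0146). Leaving out any 1 shTRMT6 library took its adjusted p to 0.0564 to 0.0619.

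The small TOM subunits, single-pass proteins that stabilise the channel, had no called change. TOMM5 measured 3100.2, 2797 and 1523 FPKM in the controls and 3194, 3496 and 2427 FPKM in the knockdown (0.35, adjusted p = 0.381). After quantile normalization it passed as higher (0.92, adjusted p = 0.0151), while median scaling turned its sign (-0.15). TOMM6 measured 1663, 1692 and 875 FPKM against 1181, 1351 and 1219 FPKM. The third control lay below all knockdown libraries and the other controls above them: the value was -0.11 (adjusted p = 0.769), -0.43 without that library (adjusted p = 0.0308), and 0.47 after quantile normalization. With trends by level and length removed the value of TOMM6 was 0.08 (adjusted p = 0.666). It was -0.02 with the third control left out as well (adjusted p = 0.898). TOMM7 had 1749, 2202 and 1112 FPKM against 2819, 3444 and 2264 FPKM, without overlap, and missed the threshold at 0.79 (adjusted p = 0.0552). It was called higher in 7 of the 15 alternatives, among them both fits with trends removed. All 3 have coding sequences of at most 222 nt.

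In the SAM complex, which inserts beta-barrels, both metaxins fell, and the barrel-forming subunit was not called. MTX2 measured 183, 139 and 142 FPKM in the controls and 43.6, 46.5 and 55.1 FPKM in the knockdown. This is the largest fall of any member (log2 fold change -1.65, SE 0.22, 95% interval -2.16 to -1.15, adjusted p = 0.00141), and 0.960% of all tested genes had a lower value. MTX2 lies on chromosome 2 (176269395 to 176338025, plus strand). MTX1, its partner on the cytosolic face, fell from 106, 91.8 and 89.5 FPKM to 54.0, 53.2 and 47.8 FPKM (-0.87, SE 0.21, adjusted p = 0.0122), which missed the threshold without the third shTRMT6 library (adjusted p = 0.0568). SAMM50, the pore itself, stood at 22.7, 20.5 and 43.0 FPKM against 30.6, 28.5 and 21.9 FPKM. Its groups overlapped (-0.02, 95% interval -0.75 to 0.70, adjusted p = 0.962). Its value was 0.30 without the third control, -0.50 after median scaling, -0.52 after quantile normalization and -0.50 with trends removed, and its difference from the metaxins was not tested. Summed over the 3 genes, SAM footprints were 279 ± 30.0 FPKM in the controls and 127 ± 1.93 FPKM in the knockdown (SD, n = 3).

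Neither gene of the MIA pathway was called. CHCHD4, the oxidoreductase of the MIA pathway, measured 157, 170.1 and 86.8 FPKM against 81.5, 106 and 75.1 FPKM. The third control lay among the knockdown libraries, and the value of -0.61 (limma adjusted p = 0.132) was -0.91 without it (adjusted p = 0.00948). CHCHD4 was called lower in 3 of the 15 alternatives, among them median scaling (-1.10, adjusted p = 0.0164). Trend removal gave -0.50 (adjusted p = 0.0974), and -0.63 with the third control left out as well (adjusted p = 0.0305). GFER, the sulfhydryl oxidase that recycles CHCHD4, measured 175, 179 and 109 FPKM against 141, 158 and 107 FPKM (-0.17, adjusted p = 0.639).

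Small TIM chaperones work as hexamers, TIMM9 with TIMM10 and TIMM8A with TIMM13. TIMM10 fell from 509, 400.1 and 355 FPKM to 227, 268 and 222 FPKM, with no overlap (-0.80, SE 0.22, adjusted p = 0.0180); without the first control or the first or the third shTRMT6 library its adjusted p was 0.0712 to 0.0804. Its partner TIMM9 measured 167, 167 and 118 FPKM against 123, 83.5 and 76.1 FPKM, which overlapped and did not pass (-0.68, adjusted p = 0.0652). Without the third control it did (-0.85, adjusted p = 0.0204), as it did after median scaling, quantile normalization and trend removal. TIMM9 was called in 5 of the 15 alternatives. It was not called with trends removed and the third control left out as well (-0.70, adjusted p = 0.0534). Nor was it with the sum without mitochondrially encoded and histone genes (-0.51, adjusted p = 0.117). TIMM13 stood at 1258, 1245 and 680.4 FPKM against 1111, 1388 and 765 FPKM (0.05, adjusted p = 0.916), and TIMM8A at 127, 128 and 53.6 FPKM against 117, 103 and 100.2 FPKM (0.15, adjusted p = 0.743). Both gave values below 0 without the third control, -0.24 and -0.26. With trends by level and length removed as well, the values were 0.27 for TIMM13 and -0.07 for TIMM8A. TIMM8B, the paralog of TIMM8A, rose from 379, 462 and 205 FPKM to 773, 770.4 and 635 FPKM, every knockdown library above every control (1.13, SE 0.30, adjusted p = 0.0163). Median scaling took it to 0.63 (adjusted p = 0.114), and leaving out the first or second shTRMT6 library took its adjusted p to 0.0597 and 0.0551. TIMM8B shares 351 exon bases with NKAPD1 on the opposite strand, a gene at a mean of 36.7 FPKM in the controls and 95.8 FPKM in the knockdown, and whether the counting used strand is not given in the sources used here; the part of NKAPD1 reads in the rise was not tested.

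Of the TIM22 carrier translocase, TIMM10B alone passed the test. TIMM10B, the small TIM docked on TIM22, measured 42.4, 74.3 and 27.8 FPKM against 89.5, 102.8 and 94.5 FPKM (1.08, SE 0.33, adjusted p = 0.0303). The call was lost after median scaling (0.60, adjusted p = 0.169), after quantile normalization (0.79, adjusted p = 0.0732), without the low-value filter (adjusted p = 0.0504), and without the first control or any 1 shTRMT6 library (adjusted p 0.0708 to 0.0891). A readthrough gene shares 396 of its exon bases on the same strand and went from a mean of 24.1 to 47.8 FPKM, so the division of reads between them is uncertain. TIMM22, the channel, measured 218, 209.6 and 122 FPKM against 126, 168 and 122 FPKM. It was not called (-0.37, adjusted p = 0.317), but was without the third control (-0.64, adjusted p = 0.0283) and after median scaling (-0.86, adjusted p = 0.0357). With trends by level and length removed the value of TIMM22 was -0.14 (adjusted p = 0.630). It was -0.30 with the third control left out as well (adjusted p = 0.204). The sum without mitochondrially encoded and histone genes gave -0.19 (adjusted p = 0.519). TIMM29, a metazoan subunit, varied within the knockdown more than between groups, at 53.2, 56.4 and 30.5 FPKM against 70.1, 81.3 and 23.2 FPKM (0.18, adjusted p = 0.783).

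In the presequence translocase TIM23, 4 of 6 genes were lower and 0 higher, beside 9.04% and 26.5% of all tested genes. The number of lower calls was 1 without the first shTRMT6 library, beside 5.22% of all genes. It was 2 without the third of them or without the first control, beside 5.33% and 6.00%. With trends by level and length removed it was 3, beside 13.7%. It was also 3 with the sum without mitochondrially encoded and histone genes, beside 6.85%. TIMM23, its channel-forming core, measured 589, 498 and 478 FPKM in the controls and 271, 263 and 218 FPKM in the knockdown. That is a mean of 522 ± 58.8 FPKM against 251 ± 28.3 FPKM (SD, n = 3), with no overlap (log2 fold change -1.05, SE 0.20, adjusted p = 0.00477). TIMM23 lies on chromosome 10 (45972449 to 46003734, plus strand). TIMM23B, a near-identical copy elsewhere on chromosome 10, had 3.94, 11.4 and 3.16 FPKM against 10.4, 12.7 and 9.22 FPKM (0.88, adjusted p = 0.133; 1.37 without the second control, adjusted p = 0.0141). Its values are the same in every library as those of the readthrough gene TIMM23B-AGAP6, and how reads were divided among the copies is not given, so its level is uncertain.

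TIMM17A and TIMM17B, alternative partners of TIMM23 in the channel, both fell. TIMM17A went from 222, 195 and 176 FPKM to 84.2, 120.4 and 131 FPKM (-0.84, SE 0.24, adjusted p = 0.0219). Its call was lost with trends by level and length removed (-0.63, adjusted p = 0.0560), and without the first control (adjusted p = 0.0746) or the first shTRMT6 library (-0.65, adjusted p = 0.115). TIMM17B went from 118, 142 and 88.6 FPKM to 45.3, 68.9 and 51.5 FPKM (-1.06, SE 0.26, adjusted p = 0.0135). Without the first or the third shTRMT6 library its adjusted p was 0.0641 and 0.0522. TIMM50, the receptor that takes precursors over from TOM, fell from 148, 142 and 177 FPKM to 99.3, 97.0 and 93.5 FPKM (-0.68, SE 0.20, adjusted p = 0.0285). All 3 knockdown libraries lay below the controls, yet the call was lost with the sum without mitochondrially encoded and histone genes (-0.50, adjusted p = 0.0877), without the first control and without any 1 shTRMT6 library (adjusted p 0.0631 to 0.101). TIMM21, which links the complex to TOM and the respiratory chain, stood at 60.3, 66.4 and 50.2 FPKM against 64.4, 55.4 and 66.9 FPKM (0.08, adjusted p = 0.803). Summed over the 6 genes, the TIM23 group had 1056 ± 83.9 FPKM in the controls and 587 ± 26.0 FPKM in the knockdown.

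Within the matrix motor the co-factors split. GRPEL1, the nucleotide exchange factor that frees HSPA9 from its client, fell from 408, 308 and 336 FPKM to 152, 170.3 and 131 FPKM (-1.20, SE 0.21, adjusted p = 0.00352); its gene is on chromosome 4 (7058906 to 7068197, minus strand). TIMM44, which tethers the motor to the channel, rose from 56.8, 70.4 and 42.9 FPKM to 110.2, 89.0 and 104 FPKM (0.85, SE 0.25, adjusted p = 0.0255). The rise of TIMM44 is the least stable call: it was lost after median scaling (0.36, adjusted p = 0.273), quantile normalization (0.61, adjusted p = 0.0772) and trend removal (0.55, adjusted p = 0.109), and without the first control or any 1 shTRMT6 library (adjusted p 0.0511 to 0.102). DNAJC19, a J-domain partner of the motor, was higher in all 3 knockdown libraries, 132, 128 and 101 FPKM against 92.1, 81.9 and 59.3 FPKM. It did not pass (0.64, limma adjusted p = 0.0666). DNAJC19 was called higher in 3 of the 15 alternatives, among them trend removal (0.62, adjusted p = 0.0414), while median scaling took it to 0.15 (adjusted p = 0.677). PAM16, the J-like regulator, measured 388, 442 and 211 FPKM against 304, 432 and 303 FPKM (0.05, adjusted p = 0.919). Its value was -0.28 without the third control, and 0.20 with trends by level and length removed as well.

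HSPA9, the mitochondrial HSP70 that drives the motor, depended on 1 control library. It measured 190.4, 183 and 719 FPKM in the controls and 260.1, 279 and 373 FPKM in the knockdown. With all libraries its value was 0.04 (95% interval -1.01 to 1.08, limma adjusted p = 0.959), and without the third control it was called higher at 0.68 (adjusted p = 0.0223). With trends by level and length removed as well, HSPA9 was not called (0.37, adjusted p = 0.157). The peptidase that cuts off presequences showed the same pattern of controls. PMPCA, its substrate-binding subunit, had 128, 121 and 296 FPKM against 157, 158 and 146 FPKM (-0.12, adjusted p = 0.802), and PMPCB, the catalytic one, 76.6, 86.3 and 178 FPKM against 114, 91.8 and 124 FPKM (0.04, adjusted p = 0.930). PMPCB shares 325 exon bases with DNAJC2 on the opposite strand, at a mean of 68.7 FPKM in the controls and 147 FPKM in the knockdown. The part of DNAJC2 reads in the level of PMPCB was not tested. Without the third control the values of PMPCA and PMPCB were 0.30 and 0.42, neither called. With trends by level and length removed as well, they were -0.0047 and 0.07.

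**Figure D3:**
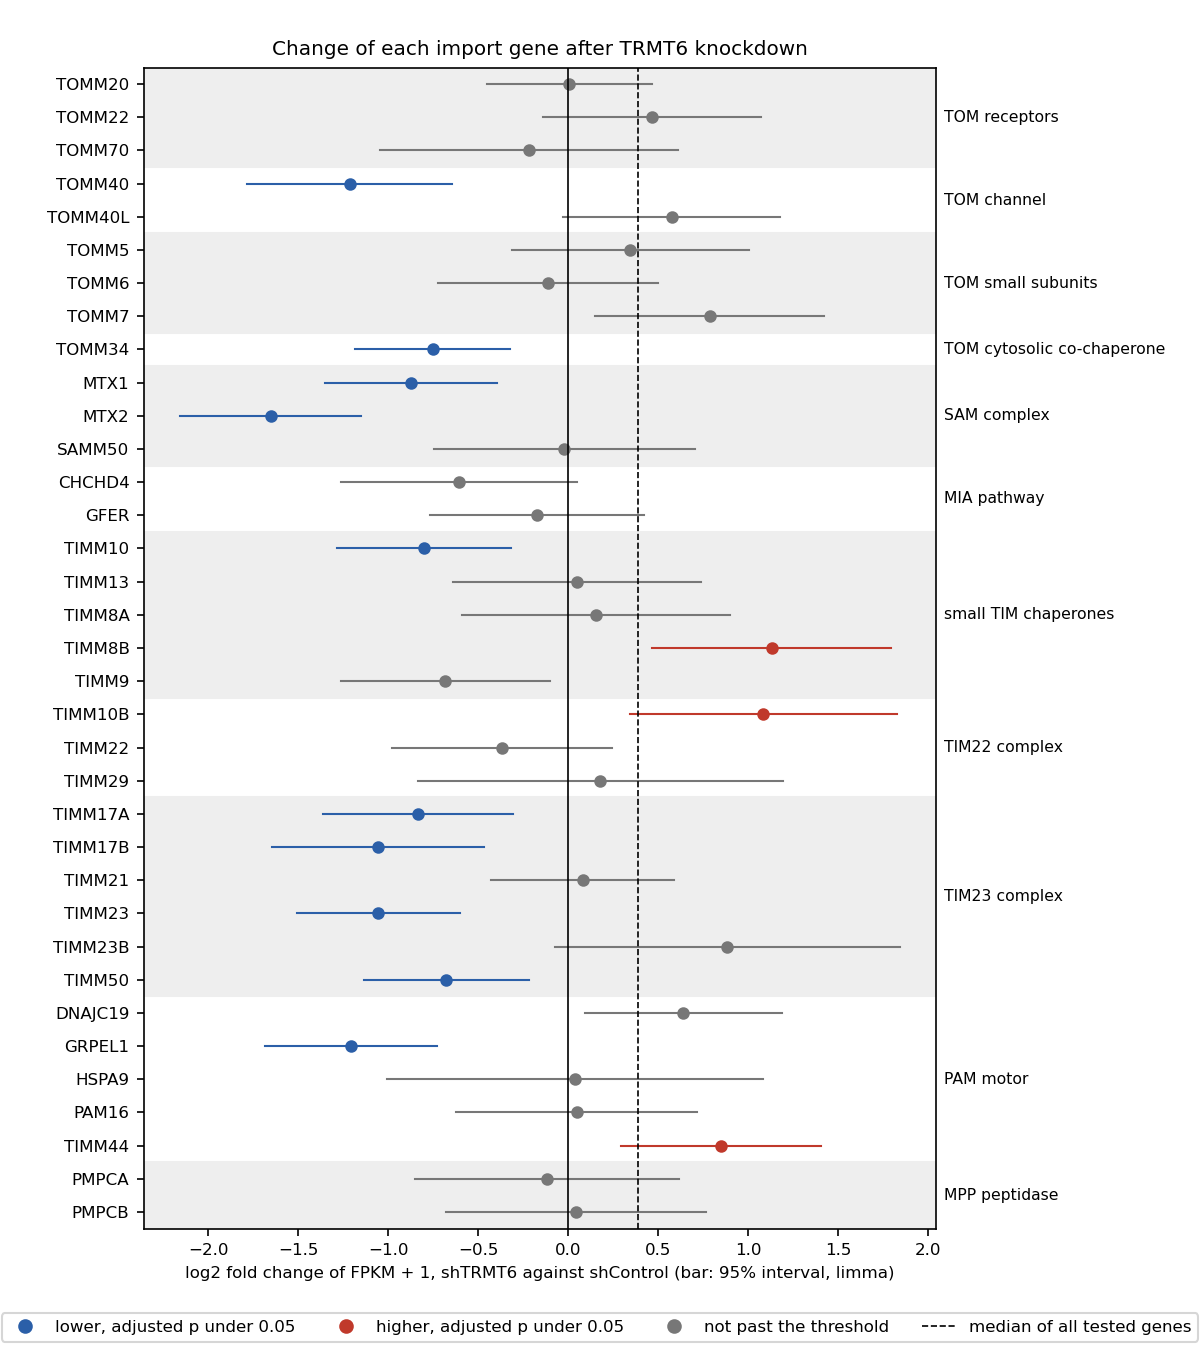
Log2 fold change of FPKM + 1 (x axis, shTRMT6 against shControl) of the 35 tested import genes in rows by role, with 95% intervals from limma; blue marks genes called lower, red genes called higher and grey genes not past the threshold, and the dashed line is the median of all tested genes at 0.39. The 10 blue genes lie between -1.65 and -0.68, with 4 of them in the TIM23 group and 2 in SAM, and the 3 red genes lie between 0.85 and 1.13.

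Ratios between partners or paralogs within a library do not depend on a single scaling factor per library, apart from the pseudocount in their logs, but quantile normalization and trend removal change them. Over 12 pairs of members, 6 ratios did not overlap between the groups; no share for other gene pairs was computed, so the count is a description of these pairs. With 3 libraries against 3 the exact permutation test, two-sided, cannot give a p under 0.1, and each of the 6 had p = 0.1 (0.2 adjusted over the 12 pairs). TOMM40 over TOMM40L was 20.1 ± 4.76 in the controls and 5.60 ± 0.846 in the knockdown (SD, n = 3), 3.45-fold lower on the log2(FPKM + 1) scale, 2.23-fold lower after quantile normalization and 2.73-fold lower with trends removed. The receptor TOMM20 over the channel TOMM40 went from 1.58 ± 0.187 to 3.69 ± 0.419, 2.33-fold higher on that scale, and 2.81-fold and 2.95-fold higher in those settings.

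For the metaxins, MTX1 over MTX2 was 0.622 ± 0.0408 in the controls and 1.08 ± 0.193 in the knockdown (exact permutation p = 0.1, the smallest possible, n = 3 a group). TIMM8A over its paralog TIMM8B was 0.291 ± 0.0394 and 0.147 ± 0.0126, PAM16 over DNAJC19 was 4.39 ± 0.930 and 2.89 ± 0.536, and CHCHD4 over GFER was 0.883 ± 0.0775 and 0.651 ± 0.0662. The other 6 pairs overlapped. Among them TIMM17A over TIMM17B was 1.75 ± 0.331 and 2.05 ± 0.427 (exact p = 0.6), and TIMM9 over TIMM10 was 0.359 ± 0.0507 and 0.398 ± 0.124 (exact p = 0.8). The log2 difference of the last was 0.12 with all libraries and -0.12 without the first shTRMT6 library. PAM16 over DNAJC19 differed by -0.59 on the log2 scale and by -0.18 after quantile normalization and -0.26 with trends removed. HSPA9 over GRPEL1 spread from 0.467 to 2.14 within the controls and from 1.64 to 2.85 in the knockdown (exact p = 0.3), the third control being the highest of its group.

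**Figure D4:**
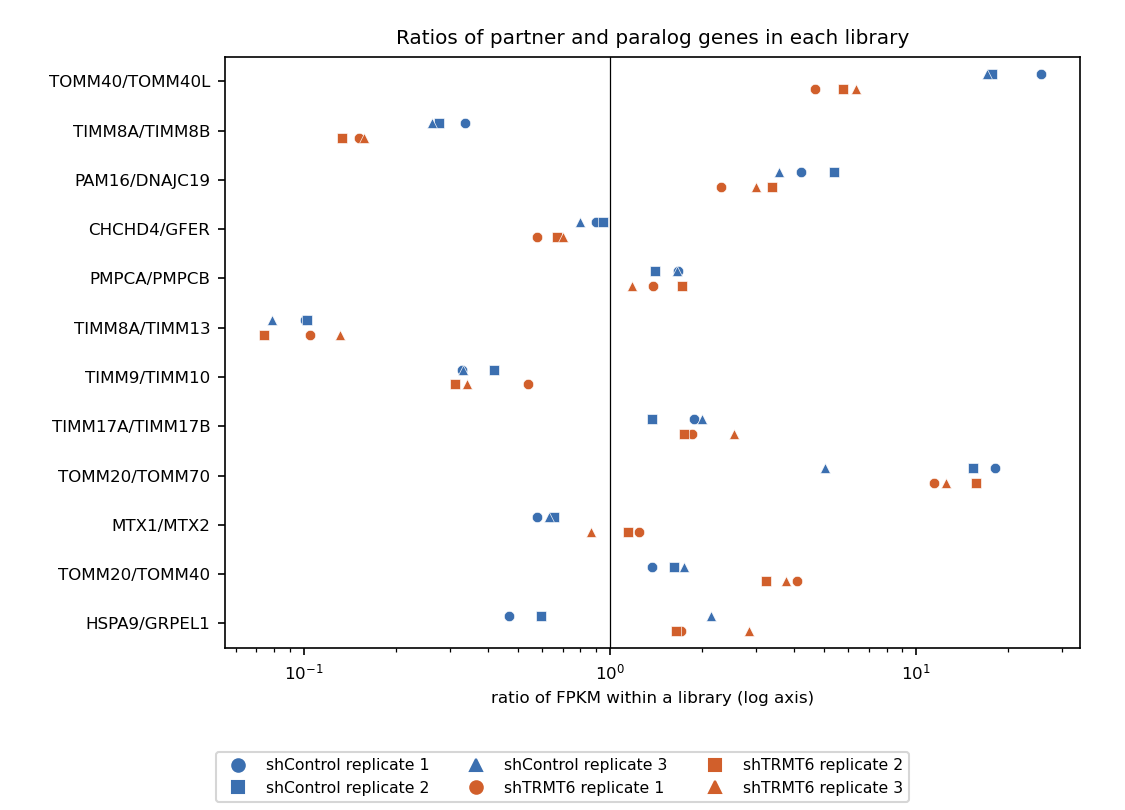
Ratio of FPKM within a library (x axis, log scale) for the 12 pairs of import genes in rows; blue points are the shControl and orange points the shTRMT6 libraries, with the replicate shown by shape. For TOMM40/TOMM40L the controls lie between 17.0 and 25.6 and the knockdown between 4.67 and 6.33, and for TOMM20/TOMM40 the order is reversed, 1.37 to 1.74 against 3.24 to 4.07.

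Coding length went with the change over the whole table, and import genes are short. Over all tested genes cut into 5 classes of length, the median log2 fold change was -0.11 in the shortest (75 to 729 nt) and 0.83 in the longest (2430 nt and over), and 21 of the 35 members were in the shortest class and 7 in the next. In the shortest class 2 members were higher and 5 lower of 21, beside 12.6% and 22.1% of all genes there. In the neighbouring class, 732 to 1143 nt, 4 of 7 were lower (MTX1, MTX2, TOMM34 and TOMM40) and 0 higher, beside 14.8% and 18.5%. By another split, members under 600 nt were lower in 3 of 18 and higher in 2, beside 22.0% and 11.7% of genes of that length, with a median of 0.05 against -0.12. Members of 600 nt or more were lower in 7 of 17 and higher in 1, beside 7.00% and 28.9%, with a median of -0.17 against 0.47. The members under 600 nt thus had about the background share of calls, and the larger share of lower calls lay among the longer ones.

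The same axis set the third control apart. Its difference from the mean of the first and second controls correlated with coding length at Spearman's rho 0.76 across the 35 members and 0.31 across all tested genes, while the log2 fold change correlated with length at -0.28 across members and 0.36 across all genes. These are descriptions across genes of the same libraries, and genes are no replicates. HSPA9 at 2037 nt stood 3.85-fold above the mean of the other controls and TOMM70 at 1824 nt 2.56-fold, whereas TIMM8A at 291 nt stood at 0.421 of it. The part of length in the members' changes was not tested. With trends by level and length removed and that library left out as well, a setting chosen after seeing the data, 10 members were lower and 5 higher, beside 14.7% and 14.1%, and TIMM17A (-0.59, adjusted p = 0.0712) and TIMM44 (0.34, adjusted p = 0.187) were not called.

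**Figure D5:**
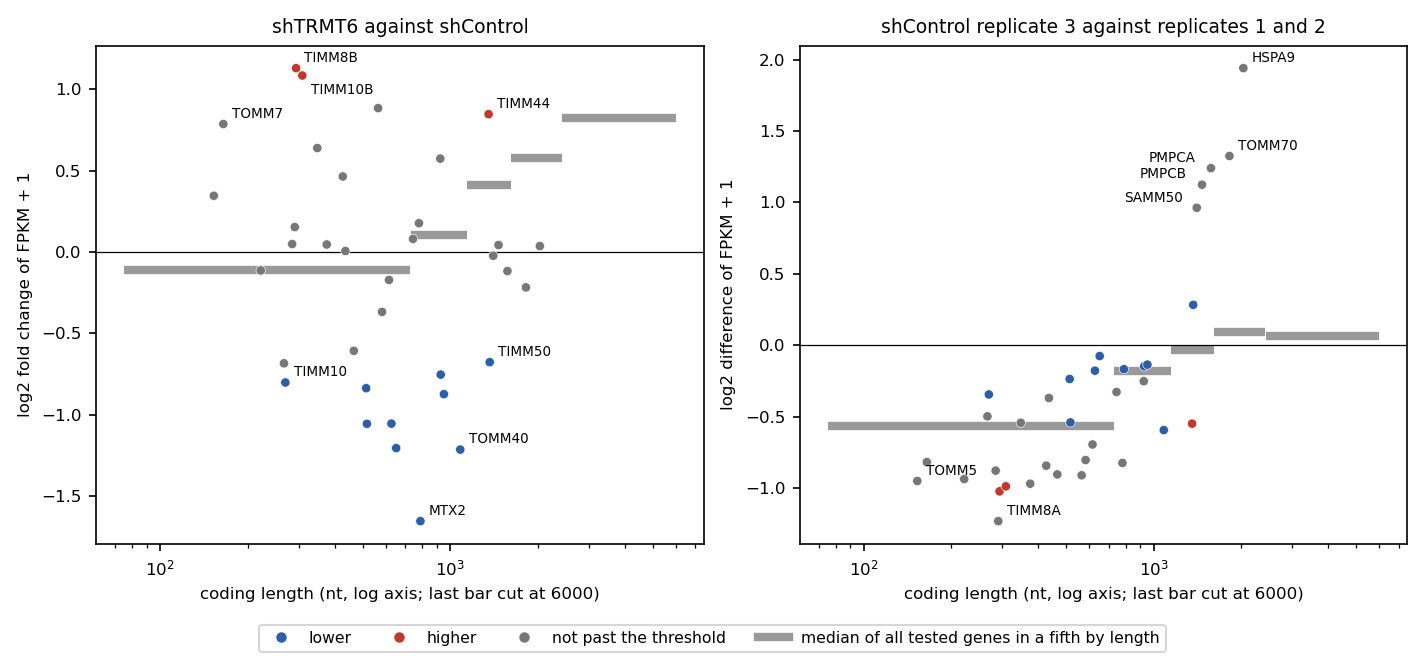
Coding length (x axis, nt, log scale) of the 35 tested import genes against the log2 fold change of shTRMT6 over shControl on the left and against the log2 difference of the third control from the first and second on the right; blue, red and grey points are members called lower, higher and not past the threshold, and grey bars are medians of all tested genes in each of the 5 classes of length. On the left the bars climb from -0.11 to 0.83 while the blue members lie below them; on the right HSPA9, TOMM70, PMPCA, PMPCB and SAMM50 lie far above the bars.

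Clients and neighbours of the import routes were counted list by list; in the same fit 9.04% of all tested genes were lower and 26.5% higher. The 3 voltage-dependent anion channels, beta-barrels that SAM inserts, were all lower: VDAC1 fell from 877, 791 and 1267 FPKM to 294, 251 and 368 FPKM (-1.67, SE 0.25, adjusted p = 0.00180), VDAC2 by 1.13 (adjusted p = 0.00981) and VDAC3 by 1.20 on the log2 scale (adjusted p = 0.0159). All 3 calls held under every scaling, and VDAC3 missed the threshold without the second (adjusted p = 0.0555) or the third shTRMT6 library (adjusted p = 0.0508). Of the 7 genes of MICOS, the cristae-organising complex that contacts SAM, 4 were lower and 0 higher, with a median of -0.84. Over the other scalings 3 to 5 were lower, beside 6.85% to 19.7% of all genes, and 0 higher, beside 13.2% to 33.5%. Over left-out libraries 2 to 4 were lower, beside 5.22% to 12.4% of all genes, and 0 higher, beside 15.7% to 28.6%. CHCHD6 went from 66.5 ± 16.2 FPKM to a mean of 27.5 FPKM (-1.24, adjusted p = 0.00881), APOO fell by 1.16 (adjusted p = 0.00525) and CHCHD3 by 0.75 on the log2 scale, the last not past the threshold with trends removed (-0.41, adjusted p = 0.0805) or without the first or second control or any 1 shTRMT6 library (adjusted p 0.0536 to 0.0888). Of 20 small proteins with twin cysteine motifs that the MIA pathway traps, 4 were lower and 1 higher, with a median of -0.27. Median scaling gave 8 and 0, beside 19.7% and 13.2% of all genes. The other 3 scalings each gave 4 and 3, beside 6.85% to 14.7% of all genes lower and 13.5% to 33.5% higher. With 1 library left out, 0 or 1 were higher, beside 15.7% to 28.6% of all genes, and 2 to 9 were lower. The lowest count came without the first control or the first shTRMT6 library, beside 6.00% and 5.22% of all genes lower. The highest came without the third control, beside 12.4%. The lowest p belonged to COA6 (-1.28), CHCHD2 (-1.12) and NDUFA8 (-0.85). Among 14 tested genes of membrane insertion and precursor maturation, 2 were higher, 1 lower and 11 not called. After median scaling 1 was higher and 5 lower, beside 13.2% and 19.7% of all genes. MTCH1, an outer membrane insertase, rose from 9.09, 25.6 and 4.22 FPKM to 117, 107 and 103 FPKM (3.29, SE 0.49, adjusted p = 0.00186), while its paralog MTCH2 fell from 361, 318 and 273 FPKM to 175, 187 and 184 FPKM (-0.79, SE 0.20, adjusted p = 0.0146). MTCH1 was called in every alternative; MTCH2 missed the threshold without the first control or the first or the third shTRMT6 library (adjusted p 0.0557 to 0.0714). IMMP2L, a subunit of the inner membrane peptidase, rose by a log2 value of 0.94 (adjusted p = 0.0256), a call lost after median scaling (0.45, adjusted p = 0.220) and quantile normalization (0.52, adjusted p = 0.158) and without any 1 shTRMT6 library (adjusted p 0.0624 to 0.0944).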

How the data were processed

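Footprints from 6 libraries were used. Per the labels' protocols, lysate was treated with nuclease, protected RNA was purified on size exclusion columns and libraries were built with a small RNA kit. The tools fastp, STAR and RSEM are listed, per the submitters' processing notes, without versions. Build, annotation, strand and the sharing of reads among copies: not given in the sources used here. Values are FPKM per gene as deposited by the authors, per the file headers. Columns named NC and SH, each numbered, were read as shControl and shTRMT6, which no label spells out; 0 columns were left unassigned. Symbols were found for 20257 of 20289 identifiers, and coding lengths came from GENCODE 29, which holds 20171. A further 21 symbols of the naming pattern are pseudogenes outside the table.

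limma 3.58.1 (R 4.3.3) was fitted to log2(FPKM + 1), group as the only term, eBayes with intensity trend, over the 11566 genes that reached 1 FPKM in 3 or more libraries, with Benjamini-Hochberg adjustment over all of them and a threshold of 0.05. Fold changes on this scale understate those of low genes. The fit was tested on simulated data. Pair ratios were compared by exact permutation over libraries. Promoters came from RefSeq on GRCh38.p14. Low values fell on steps of 1 read (0.247 to 0.388 FPKM at 1 kb; 74.3% to 79.2% of the values used within 0.1 of a whole number), which gives estimated depth only, so no count model was fitted. Libraries correlated across genes (Pearson, log scale) at 0.936 to 0.964 within groups and 0.865 to 0.923 between them, and 0 pairs of libraries were identical.

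Alternatives were 4 other scalings (median, FPKM sum without mitochondrially encoded and histone genes, quantile, and removal of trends by spline with 5 degrees of freedom), no filter or a minimum mean of 5 FPKM, 0.1 as the pseudocount, a replicate block, thresholds of 0.1 and 0.01, and leaving out each library. The members and lists were chosen with earlier results of these data known. All members are named, TRMT6 as the check of the knockdown, and of each further list up to 3 genes of smallest p.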

Additional observations from a re-analysis of the deposited data

How the results depend on the processing

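The 13 called members kept their direction in every alternative run. Of the 10 members reported as lower, 4 passed at an adjusted p under 0.01; the count ranged from 5 to 14 when 1 library was left out, with 5 without the first or the third shTRMT6 library, and was within 1.5 times the reported one in the other alternatives. Counts of members higher were 0 after median scaling, 7 with the sum without mitochondrially encoded and histone genes, 5 with trends by level and length removed (also 5 with the third control left out as well), 5 at an adjusted p under 0.1 and 0 under 0.01, and ranged from 0 to 5 over left-out libraries. Over all genes, 1046 lower became 2275 after median scaling, 1700 after quantile normalization, 473 at 0.01 and 1666 with trends removed and the third control left out (590 to 1427 over left-out libraries); 3069 higher became 1522, 1602, 1421 and 1602, and 1537 with trends removed (1769 to 3290). The cause of these moves was not tested.

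The members' median log2 fold change was -0.50 after median scaling and 0.15 with the sum without mitochondrially encoded and histone genes. Signs turned in members that were not called. Median scaling gave HSPA9 -0.46, PAM16 -0.45, PMPCB -0.45, TIMM13 -0.45, TIMM21 -0.41, TIMM29 -0.31, TIMM8A -0.34, TOMM20 -0.49, TOMM22 -0.031 and TOMM5 -0.15. The sum without mitochondrially encoded and histone genes gave GFER 0.0043, PMPCA 0.059, SAMM50 0.15 and TOMM6 0.064. Quantile normalization gave PMPCB -0.10, TIMM21 -0.24, TIMM29 -0.20, TOMM40L -0.046 and TOMM6 0.47. Trend removal gave GFER 0.032, HSPA9 -0.091, PMPCB -0.19 and TOMM6 0.077, and without the third control as well TIMM21 -0.0054, TIMM29 -0.13 and TIMM8A -0.074. Over left-out libraries HSPA9 ranged from -0.30 to 0.68, PAM16 from -0.28 to 0.25, PMPCA from -0.34 to 0.30, PMPCB from -0.19 to 0.42, SAMM50 from -0.22 to 0.30, TIMM13 from -0.24 to 0.28, TIMM21 from -0.029 to 0.17, TIMM29 from -0.15 to 0.73, TIMM8A from -0.26 to 0.36, TOMM20 from -0.12 to 0.13, TOMM6 from -0.43 to 0.049 and TOMM70 from -0.44 to 0.22. Among pair ratios, the log2 difference over left-out libraries ranged from -0.086 to 0.32 for TIMM8A/TIMM13, from -0.12 to 0.27 for TIMM9/TIMM10 and from -0.34 to 0.57 for TOMM20/TOMM70; quantile normalization and trend removal, added for the pairs after seeing the data, gave -0.55 and -0.32 for TIMM8A/TIMM13 and -0.20 and -0.12 for TIMM9/TIMM10.

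With the replicate number as a block, 11 members were lower and 4 higher; TIMM9 and TOMM7 were gained and 0 calls lost. Over all genes the block gave 1065 lower and 3146 higher. Deviations of same-numbered libraries from their group means correlated across genes at r 0.012, 0.013 and 0.102. The highest value was 0.127, between the first control and the second shTRMT6 library. Deviations from a mean of 3 libraries depend on each other, so these values cannot show whether the numbers pair the libraries.

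At 3 libraries a group and the estimated depth, low members are imprecise: TIMM23B rests on 7 to 29 and TOMM40L on 34 to 82 estimated reads a library.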

Other observations

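Carriers of the inner membrane, which travel by the small TIM chaperones and TIM22, had calls in both directions: of 28 tested, 7 were higher (25%), 4 lower (14.3%) and 17 not called, beside 26.5% and 9.04% of all tested genes, with a median log2 fold change of -0.02. After median scaling 5 were higher and 11 lower, beside 13.2% and 19.7%, and with trends by level and length removed 5 and 6, beside 13.5% and 13.7%. SLC25A5, an ATP/ADP carrier, fell from 598, 514 and 629 FPKM to 204, 251 and 175 FPKM (-1.47, SE 0.21, limma adjusted p = 0.00172). SLC25A25, a calcium-regulated carrier of ATP, rose from 20.4, 36.1 and 28.7 FPKM to 93.1, 94.5 and 80.9 FPKM (1.65, SE 0.26, adjusted p = 0.00232), and SLC25A36, a pyrimidine nucleotide carrier, from 39.2, 68.7 and 30.9 FPKM to 159.5, 145 and 183 FPKM (1.86, SE 0.30, adjusted p = 0.00246). Of 8 mitochondrial proteases, 1 was higher and 0 lower, and after median scaling 1 and 2, beside 13.2% and 19.7% of all genes. SPG7, a subunit of the m-AAA protease, rose from 50.1, 91.7 and 30.0 FPKM to 216, 276 and 187 FPKM (2.09, SE 0.37, limma adjusted p = 0.00345).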
